A study of Mus musculus with 16 samples.

Results

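Cyclic nucleotide phosphodiesterases end the signals that cyclic AMP and cyclic GMP carry inside a cell. The 10 genes described here (Pde1a, Pde1b, Pde1c, Pde2a, Pde4a, Pde4b, Pde4d, Pde7b, Pde8b and Pde10a) were taken by gene symbol from a table of striatal read counts, and all 10 met the requirement of at least 10 counts in at least 4 of 16 libraries. They are 10 of the 19363 genes that met it, out of 55450 in the table. Polyadenylated RNA was sequenced from the striatum of 16 male mice aged 14 weeks on a C57Bl/6 background (C57BL/6 J in the study's methods), 1 library per mouse. R6/1 mice, of the strain B6.Cg-Tg(HDexon1)61Gpb/J, carried a transgene of exon 1 of human huntingtin with an expanded CAG repeat. This transgene was inherited through the father, and wild-type (wt) mice lacked it. Within each genotype, mice at the 2 extremes of a combined score of rotarod performance, feet clasping and body weight were taken from a larger cohort as “good” and “poor” performers, with average mice left out, which gave 4 mice in each of the groups wt “good”, wt “poor”, R6/1 “good” and R6/1 “poor”. The groups were therefore selected for phenotype within a genotype.

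These enzymes hydrolyse the cyclic nucleotides made by adenylyl and guanylyl cyclases, and the families differ in substrate and in what controls them. The PDE1 enzymes are switched on by calcium and calmodulin, PDE2A is stimulated by cyclic GMP, PDE4, PDE7 and PDE8 enzymes act on cyclic AMP, and PDE10A acts on both nucleotides. In the striatum, cyclic AMP relays dopamine and adenosine signals in medium spiny neurons through protein kinase A and its target DARPP-32, and PDE10A and PDE1B are known for their high levels in these neurons.

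In R6/1 mice, 6 of the 10 genes were lower than in the 8 wild-type mice, 1 was higher and 3 did not pass the test. The genes that fell were Pde10a, Pde1b, Pde7b, Pde2a, Pde1c and Pde8b, and the gene that rose was Pde4d. The test was edgeR's quasi-likelihood F test, adjusted by Benjamini and Hochberg's method over all 19363 genes, at an adjusted p of 0.05, and every call below uses it unless another tool is named. Over all genes tested, 17.0% were called lower and 17.2% higher in this comparison. The median log2 fold change was -0.49 over the 10 genes and 0.02 over all genes. CPM values (read counts scaled to a common library size after TMM normalisation) did not overlap between the 8 R6/1 and the 8 wild-type mice for 5 of the 10 genes, all lower in R6/1 mice (Pde10a, Pde1b, Pde7b, Pde1c and Pde8b). Of all genes, 5.03% lay below the wild-type range in this way and 4.05% lay above it.

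**Figure D1:**
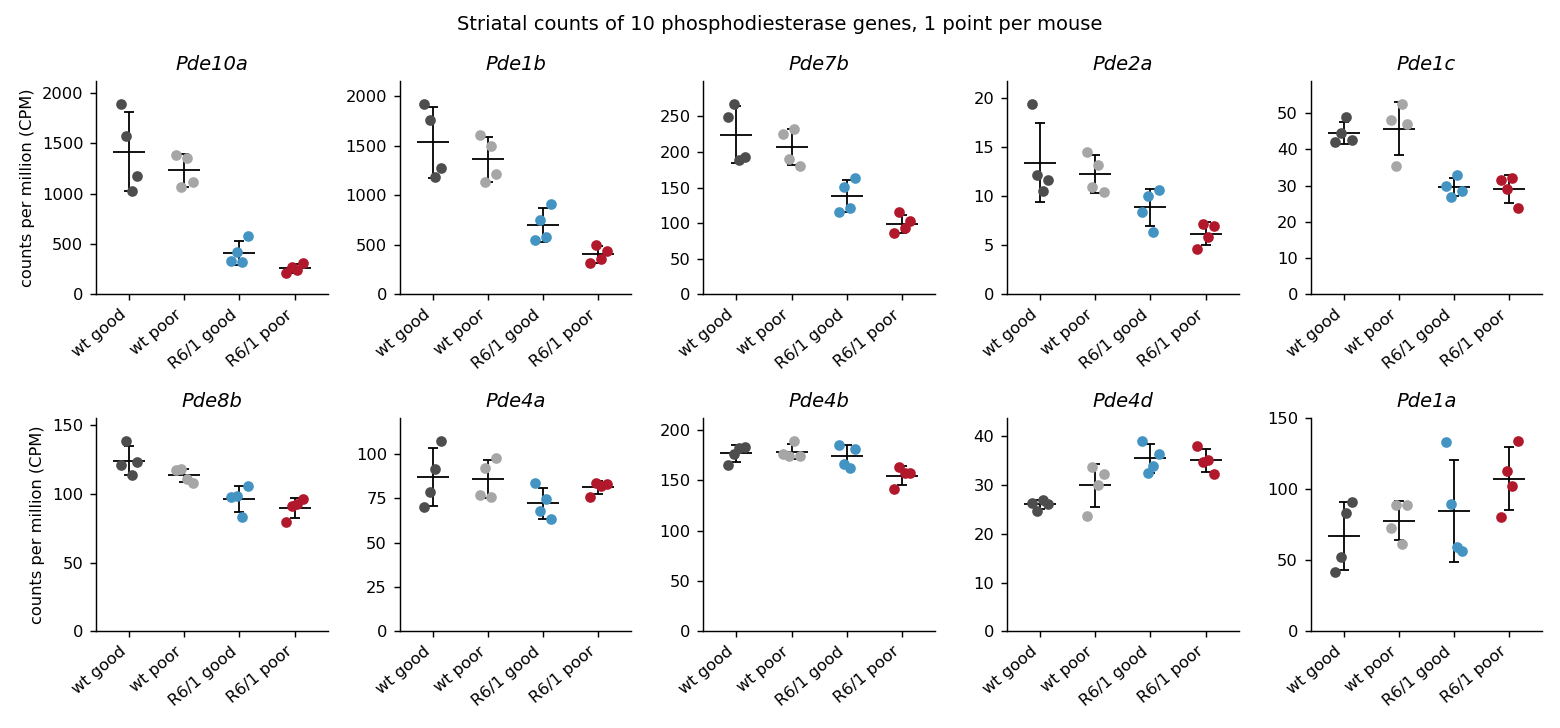
CPM of the 10 phosphodiesterase genes in each group, 1 point per mouse and 4 mice per group, with the group mean (horizontal bar) and SD (error bar); each vertical axis starts at 0. All 8 R6/1 points lie below all 8 wild-type points for Pde10a, Pde1b, Pde7b, Pde1c and Pde8b.

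Pde10a, the dual-substrate enzyme of medium spiny neurons, changed most. Wild-type mice held between 1024 and 1892 CPM with a median of 1267. The R6/1 “good” mice held 331, 419, 325 and 580.5 CPM, and the R6/1 “poor” mice 209.8, 278, 239 and 313 CPM. The R6/1 mice were thus all below the lowest wild-type mouse, and the R6/1 “poor” mice were all below the lowest R6/1 “good” mouse. Against the same 8 wild-type mice, the log2 fold change was -1.68 (SE 0.19, adjusted p = 0.000104) in R6/1 “good” mice and -2.35 (SE 0.16, adjusted p = 3.995e-06) in R6/1 “poor” mice. As shares of the wild-type mean, the group means were 31.2% and 19.6%. The gene lies at chr17:8525372-8986648 on the plus strand (GRCm38, GENCODE M21 annotation).

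Promoter windows are shown for the 3 genes with the largest falls and for the gene that rose. Any link between these sequences and the changes was not tested. Each window runs from 250 bases before to 50 bases after a RefSeq start site (GRCm38.p6), on the gene's own strand. Capitals mark matches on either strand to CCAAT (the CCAAT box), GGGCGG (the GC box) or TGACG (from the cAMP response element), and no matches to different motifs overlapped.
Pde10a, first start site, chr17:8801495-8801794, plus strand: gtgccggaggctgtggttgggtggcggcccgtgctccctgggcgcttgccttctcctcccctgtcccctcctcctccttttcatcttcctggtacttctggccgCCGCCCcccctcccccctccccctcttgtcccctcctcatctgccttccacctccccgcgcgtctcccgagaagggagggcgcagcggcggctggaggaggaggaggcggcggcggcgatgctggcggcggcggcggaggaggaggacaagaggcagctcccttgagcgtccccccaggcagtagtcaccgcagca
Pde10a, second start site, chr17:8849735-8850034, plus strand: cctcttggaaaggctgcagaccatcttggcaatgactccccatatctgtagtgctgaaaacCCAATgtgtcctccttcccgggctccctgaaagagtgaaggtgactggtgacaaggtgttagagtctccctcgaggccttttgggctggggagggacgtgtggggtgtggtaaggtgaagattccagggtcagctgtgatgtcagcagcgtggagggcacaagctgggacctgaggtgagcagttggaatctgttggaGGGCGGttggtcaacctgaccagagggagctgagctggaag
Pde1b, first start site, chr15:103502784-103503083, plus strand: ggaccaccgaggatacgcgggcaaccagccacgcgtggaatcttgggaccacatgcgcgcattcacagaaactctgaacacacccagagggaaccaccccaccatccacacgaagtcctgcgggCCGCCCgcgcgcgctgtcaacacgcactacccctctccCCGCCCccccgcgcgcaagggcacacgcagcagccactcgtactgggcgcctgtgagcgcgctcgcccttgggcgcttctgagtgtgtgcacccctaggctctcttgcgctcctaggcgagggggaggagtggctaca
Pde7b, chr10:20548279-20548578, minus strand: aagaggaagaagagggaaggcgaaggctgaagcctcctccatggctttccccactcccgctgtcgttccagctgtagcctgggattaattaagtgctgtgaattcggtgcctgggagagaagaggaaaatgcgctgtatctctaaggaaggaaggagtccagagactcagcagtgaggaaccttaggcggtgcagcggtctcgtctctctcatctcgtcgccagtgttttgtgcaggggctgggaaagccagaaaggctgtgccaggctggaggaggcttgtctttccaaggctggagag
Pde4d, chr13:108653927-108654226, plus strand: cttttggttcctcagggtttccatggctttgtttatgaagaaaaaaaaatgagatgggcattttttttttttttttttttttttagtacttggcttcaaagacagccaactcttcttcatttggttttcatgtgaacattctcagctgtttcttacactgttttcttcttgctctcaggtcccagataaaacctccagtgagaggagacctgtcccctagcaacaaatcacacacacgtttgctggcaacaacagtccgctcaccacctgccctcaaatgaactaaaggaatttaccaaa

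The window at the first Pde10a start was 71.3% G and C, that at the second 56.7%, that at the first Pde1b start 67.0%, that of Pde7b 55.7% and that of Pde4d 39.7%, against a median of 52.7% over all 32851 windows. The first Pde10a window held 1 GC box, the second held 1 GC box and 1 CCAAT box, and the first Pde1b window held 2 GC boxes. Pde1b has 2 other windows, at further start sites and not printed here, with 44% and 51% G and C and none of the 3 motifs. No window of the 5 printed held TGACG, and those of Pde7b and Pde4d held none of the 3 motifs. Over the 31 windows of the 10 genes, 11 held a CCAAT box, 8 a GC box and 5 TGACG. Of all windows, 37.4%, 35.7% and 20.8% held them. The windows of Pde10a, Pde7b and Pde4d lie inside the GENCODE spans of these genes. The outermost annotated starts, at chr17:8525372, chr10:20725078 and chr13:108449948, are not covered by them. A match describes the letters only, and which start site the counted reads came from was not measured.

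The 3 genes of the calcium- and calmodulin-dependent PDE1 family did not move alike. Pde1b, the member that is abundant in striatum, fell. Wild-type mice had between 1139 and 1923 CPM, with a median of 1386. Values in R6/1 “good” mice were 551, 754, 583 and 913 CPM, and R6/1 “poor” mice had 317, 501, 357 and 442 CPM. The 3 ranges did not overlap. Against wild-type mice, its log2 fold change was -1.05 (SE 0.16, adjusted p = 0.000795) in R6/1 “good” and -1.84 (SE 0.16, adjusted p = 1.3e-05) in R6/1 “poor” mice, with group means at 48.3% and 27.9% of the wild-type mean. Pde1b lies at chr15:103503034-103530052 on the plus strand.

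Pde1c, which hydrolyses both cyclic nucleotides, fell in both R6/1 groups. Its counts were far lower, between 35.5 and 52.6 CPM (median 45.8) in wild-type mice. Among R6/1 “good” mice the values were 29.8, 27.0, 32.9 and 28.7 CPM, and R6/1 “poor” mice had 31.7, 29.1, 32.2 and 23.7 CPM. All R6/1 mice were below all wild-type mice, and the R6/1 groups overlapped. Fitted log2 fold changes were -0.61 (SE 0.09, adjusted p = 0.000288) in R6/1 “good” and -0.63 (SE 0.10, adjusted p = 0.000503) in R6/1 “poor” mice.

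Pde1a, the remaining PDE1 gene, did not pass the test in either group. Wild-type mice had between 41.7 and 90.7 CPM (median 77.8). In R6/1 “good” mice it measured 133, 89.7, 59.1 and 56.5 CPM, and R6/1 “poor” mice had 80.3, 113, 102 and 134 CPM. The groups overlapped, and the spread within a group reached 42.1% of the mean in R6/1 “good” mice. In the fit, the log2 fold change was 0.23 (SE 0.27, adjusted p = 0.573) in R6/1 “good” and 0.57 (SE 0.21, adjusted p = 0.0517) in R6/1 “poor” mice, and with DESeq2 the latter had an adjusted p of 0.0161. Without wt “good” 1, wt “good” 4, wt “poor” 2, wt “poor” 4 or R6/1 “poor” 1, left out singly, edgeR's adjusted p in R6/1 “poor” mice was 0.0418 to 0.0471. Over all 12 fits with 1 mouse left out, it reached 0.156, and the log2 fold change was 0.44 to 0.68.

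Levels of Pde1a tended to go with the summed CPM of 9 cortical neuron markers (Slc17a7, Tbr1 and others). The marker sum was 49.7 in wt “good” 1, which had the lowest Pde1a of all mice, and 847 in R6/1 “poor” 4, which had the highest. Within R6/1 “good” mice the 4 sums, in the order of the Pde1a values above, were 548, 251, 138 and 58.5, and the order of the mice was the same for both measures. In R6/1 “poor” mice the sums were 114, 176, 242 and 847, and R6/1 “poor” 2 and 3 changed places. The order was also the same in wt “good” mice, but not in wt “poor” mice. Across groups the link was looser. R6/1 “poor” 2 had a sum of 176 with 113 CPM of Pde1a, and wt “good” 2 had 156 with 52.1 CPM. Pde1a was not alone in this. Pde4a was 70.0, 78.3, 91.6 and 107.5 CPM in wt “good” 1 to 4, whose marker sums were 49.7, 156, 320 and 792. In the other groups the order of Pde4a differed from that of the sums. The part of the cortical markers in the values of Pde1a, Pde4a or the other genes was not tested.

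Among the enzymes specific for cyclic AMP, Pde7b fell most. Wild-type mice had between 181 and 268 CPM (median 209). The 4 R6/1 “good” mice had 116, 151, 122 and 164 CPM, and R6/1 “poor” mice had 86.3, 116, 93.1 and 103 CPM. All R6/1 mice lay below all wild-type mice, and the highest R6/1 “poor” mouse (115.6) lay just below the lowest R6/1 “good” mouse (116.2). Its log2 fold change was -0.64 (SE 0.12, adjusted p = 0.00182) in R6/1 “good” and -1.12 (SE 0.11, adjusted p = 2.26e-05) in R6/1 “poor” mice. Pde7b lies at chr10:20398004-20725078 on the minus strand.

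Pde8b, a high-affinity cyclic AMP enzyme, fell less. Wild-type mice had between 108 and 139 CPM (median 118). For R6/1 “good” mice the values were 98.0, 98.4, 82.9 and 106 CPM, and R6/1 “poor” mice had 79.4, 91.4, 92.9 and 96.2 CPM. All R6/1 mice were below all wild-type mice, and the R6/1 groups overlapped. The log2 fold change was -0.30 (SE 0.07, adjusted p = 0.00812) in R6/1 “good” and -0.40 (SE 0.07, adjusted p = 0.001) in R6/1 “poor” mice. Pde8b shared 447 exonic bases with the antisense gene Gm48420, which had between 23 and 69 counts per library, and the strand setting of the counting is not given in the sources used here.

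The PDE4 genes, which encode the rolipram-sensitive cyclic AMP enzymes, went apart. Pde4d rose. It had between 23.7 and 33.8 CPM (median 26.6) in wild-type mice. The 4 R6/1 “good” mice were at 39.2, 32.4, 33.9 and 36.5 CPM, and R6/1 “poor” mice had 38.1, 34.8, 35.2 and 32.4 CPM. Most R6/1 mice were above all wild-type mice, but the ranges overlapped. Fitted log2 fold changes were 0.34 (SE 0.10, adjusted p = 0.0157) in R6/1 “good” and 0.33 (SE 0.09, adjusted p = 0.017) in R6/1 “poor” mice. The call was lost without R6/1 “good” 1 (log2 fold change 0.29, adjusted p = 0.067) and without R6/1 “poor” 1 (0.28, adjusted p = 0.0719), and R6/1 “poor” against wt “poor” mice alone gave 0.23 (adjusted p = 0.156). In R6/1 “poor” mice it was also lost within libraries numbered 1 to 8 (0.45, adjusted p = 0.12) and within those numbered 9 to 16 (0.25, adjusted p = 0.135). The latter is also the value of all R6/1 mice within numbers 9 to 16, where each R6/1 mouse is a “poor” one.

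Pde4b had the smallest spread among the 8 wild-type mice (SD 4.09% of the mean), with a range of 165 to 189 CPM (median 176). R6/1 “good” mice had 186, 166, 162 and 181 CPM and overlapped it. R6/1 “poor” mice had 142, 163, 157 and 157 CPM, all below the lowest wild-type mouse. The log2 fold change was -0.03 (SE 0.05, adjusted p = 0.712) in R6/1 “good” and -0.20 (SE 0.05, adjusted p = 0.0141) in R6/1 “poor” mice, and the latter call was lost without R6/1 “poor” 1 (-0.16, adjusted p = 0.0647). In all R6/1 mice its log2 fold change was -0.11 (SE 0.05, adjusted p = 0.0967), and it passed without R6/1 “good” 1 or R6/1 “good” 4 (adjusted p = 0.0371 and 0.0482).

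Pde4a, the third PDE4 gene, passed the test in neither group. It ranged from 70.0 to 108 CPM in wild-type mice (median 85.0), from 63.2 to 83.5 CPM in R6/1 “good” mice and from 75.9 to 83.8 CPM in R6/1 “poor” mice. The ranges overlapped. Fitted log2 fold changes were -0.26 (SE 0.11, adjusted p = 0.104) in R6/1 “good” and -0.09 (SE 0.10, adjusted p = 0.551) in R6/1 “poor” mice.

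Pde2a, the enzyme stimulated by cyclic GMP, was called lower in both groups, on few counts. Its counts may cover only part of the gene: 3955 of its 6149 exonic bases (64.3%) lie on the same strand as exons of Gm45837, which is listed at 0 in all 16 libraries, and how the counting treated shared bases is not given in the sources used here. Wild-type mice had between 10.4 and 19.4 CPM (median 11.9). Values of 8.33, 10.01, 6.37 and 10.6 CPM were found in R6/1 “good” mice, and 4.66, 7.19, 5.88 and 6.996 CPM in R6/1 “poor” mice. Only the R6/1 “poor” mice were all below the wild-type range. This gave a log2 fold change of -0.53 (SE 0.17, adjusted p = 0.0382) in R6/1 “good” and -1.05 (SE 0.17, adjusted p = 0.000586) in R6/1 “poor” mice. The call in R6/1 “good” mice was lost when wt “poor” 1 (adjusted p = 0.0629), wt “poor” 3 (0.0571), R6/1 “good” 1 (0.0993), R6/1 “good” 2 (0.0543) or R6/1 “good” 3 (0.118) was left out. That call was also lost in edgeR against wt “good” mice only (-0.60, adjusted p = 0.097) and without a filter on low counts (-0.535, adjusted p = 0.0562).

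In counts over the 10 genes, R6/1 “good” mice had 6 lower and 1 higher, against 12.4% of all genes called lower and 12.1% higher. R6/1 “poor” mice had 7 lower and 1 higher, against 14.9% and 13.5% of all genes. Both comparisons use the same 8 wild-type mice, so their fold changes are shown side by side and not as independent results. Their medians over the 10 genes were -0.42 and -0.52, and over all genes 0.01 and 0.00.

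**Figure D2:**
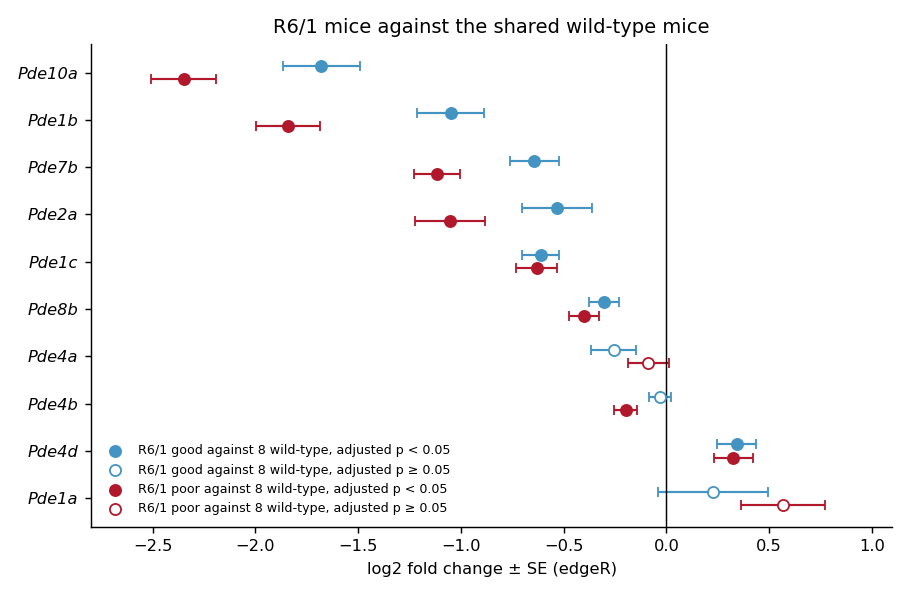
Log2 fold change (horizontal axis, edgeR, error bars are 1 SE) of each phosphodiesterase gene in R6/1 “good” (blue) and R6/1 “poor” (red) mice against the same 8 wild-type mice; filled points have an adjusted p under 0.05. Pde10a, Pde1b, Pde7b and Pde2a lie farther to the left in R6/1 “poor” mice, while Pde1c and Pde4d have nearly equal values in both groups.

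Whether “poor” and “good” R6/1 mice differed was tested directly. None of the 10 genes passed edgeR's test, which called 0% of all genes. An unadjusted p under 0.05 was found for 4 of the 10, against 15.5% of all genes (3000). These 4 were Pde1b (log2 fold change -0.78, SE 0.19, adjusted p = 0.248), Pde7b (-0.46, SE 0.12, adjusted p = 0.248), Pde10a (-0.65, SE 0.20, adjusted p = 0.252) and Pde2a (-0.50, SE 0.19, adjusted p = 0.278). DESeq2 called Pde1b (adjusted p = 0.00693), Pde10a (0.0316) and Pde7b (0.0347) lower, where it called 0.666% of all genes lower. The CPM of these 3 genes did not overlap between the groups, which held for 4.00% of all genes in this direction. Pde4d (0.00, SE 0.08), Pde1c (-0.01, SE 0.11) and Pde8b (-0.08, SE 0.08) had log2 fold changes within 1 SE of 0, and Pde4a had 0.18 (SE 0.09, adjusted p = 0.332).

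Performance and library numbering were not balanced in R6/1 mice. All 4 R6/1 “good” libraries and R6/1 “poor” 2 had running numbers from 1 to 8, with 16155356 to 20250680 counts among the libraries so numbered, and the other 3 R6/1 “poor” libraries had numbers from 9 to 16, with 21529188 to 24897354. With the numbering (1 to 8 or 9 to 16) as a covariate, Pde1b had a log2 fold change of -0.47 (SE 0.28), Pde10a -0.56 (SE 0.33) and Pde7b -0.25 (SE 0.19), each with an adjusted p of 1.00 in edgeR. Within numbers 1 to 8, R6/1 “poor” 2, as the only R6/1 “poor” mouse, was below all 4 R6/1 “good” mice in the CPM of each of the 3 genes. Among numbers 9 to 16 there was no R6/1 “good” mouse.

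**Figure D3:**
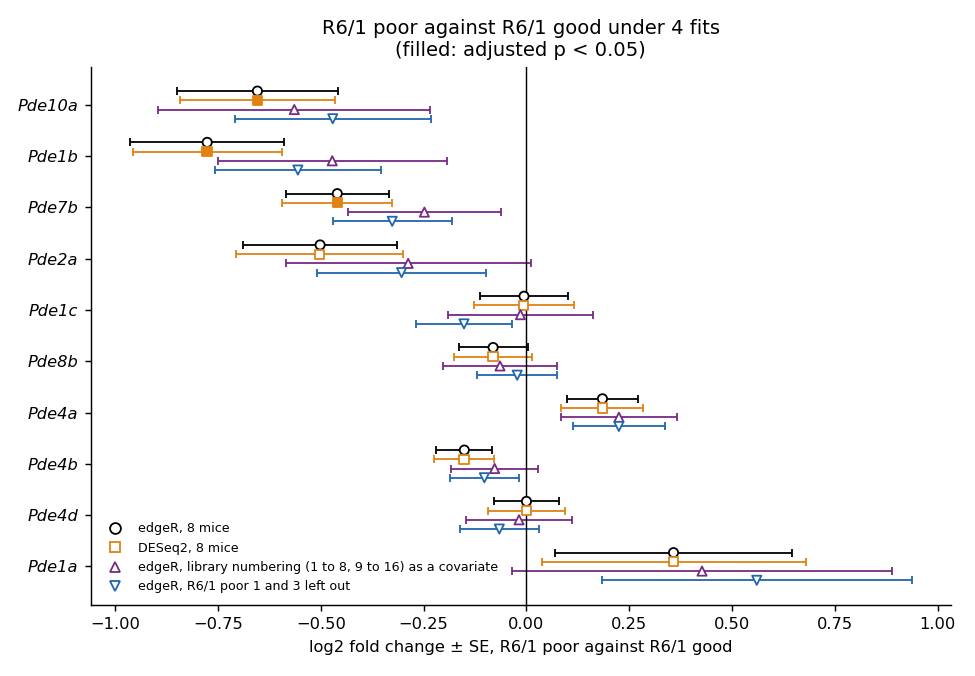
Log2 fold change (horizontal axis, error bars are 1 SE) of R6/1 “poor” against R6/1 “good” mice for each phosphodiesterase gene under 4 fits, each with its own symbol; filled symbols have an adjusted p under 0.05. Pde10a, Pde1b and Pde7b lie left of 0 in each of these fits, are filled with DESeq2 alone, and lie closest to 0 with the library numbering as a covariate or without R6/1 “poor” 1 and 3.

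In wild-type mice, no gene passed the test of “poor” against “good” performers with edgeR (0% of all genes) or DESeq2. The log2 fold changes of the 10 genes lay between -0.20 (Pde10a, SE 0.18) and 0.22 (Pde1a, SE 0.25), with an adjusted p of 1.00 in edgeR for each, and none had an unadjusted p under 0.05, against 2.44% of all genes (472). The test of the difference between the performance effects in the 2 genotypes gave no call among the 10 genes with edgeR, which called 0% of all genes, or with DESeq2, which called 1 gene. Pde1b alone had an unadjusted p under 0.05 in it (log2 difference -0.62, SE 0.28, adjusted p = 0.826 in edgeR), against 5.77% of all genes (1118).

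Most ratios between the genes differed between the genotypes. For every pair of the 10 genes, the ratio of their CPM within a mouse was compared between the 8 R6/1 and 8 wild-type mice by a two-sided exact permutation test, and 36 of 45 pairs passed after Benjamini-Hochberg adjustment over 90 tests (45 pairs in 2 comparisons). The share of pairs of other genes that would pass was not measured. These 45 ratios reuse the same 10 genes, so the count partly restates their unlike fold changes. Among the 6 genes that fell, 11 of 15 pairs passed. Those that did not were Pde7b to Pde2a (log2 difference -0.09, adjusted p = 0.403 by the exact permutation test), Pde7b to Pde1c (-0.26, adjusted p = 0.18), Pde2a to Pde1c (-0.17, adjusted p = 0.463) and Pde1c to Pde8b (-0.26, adjusted p = 0.0935). The ratio of Pde10a to Pde1b was 0.861 to 0.984 in wild-type mice and 0.554 to 0.708 in R6/1 mice, with no overlap. The mean log2 ratio differed by -0.57 (R6/1 -0.70 ± 0.14, wild-type -0.13 ± 0.06, SD, n = 8 each, exact p = 0.000155, the smallest the test can give, adjusted p = 0.000666). The difference was -0.67 among libraries 1 to 8 and -0.41 among libraries 9 to 16. Pde10a was thus lower relative to Pde1b in every R6/1 mouse than in any wild-type mouse.

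The ratio of Pde1b to Pde7b was 5.99 to 7.73 in wild-type and 3.68 to 5.56 in R6/1 mice, a log2 difference of -0.57 (exact permutation p = 0.000155, adjusted p = 0.000666). When R6/1 “poor” mice were set against R6/1 “good” mice by the same exact permutation test, none of the 45 ratios passed, 7 had an unadjusted p under 0.05, and the smallest adjusted p was 0.0584. There the ratio of Pde10a to Pde1b was 0.554 to 0.708 in R6/1 “poor” and 0.556 to 0.636 in R6/1 “good” mice and overlapped (log2 difference 0.14, exact permutation p = 0.2). The smallest p that 4 against 4 mice allow is 0.0286.

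**Figure D4:**
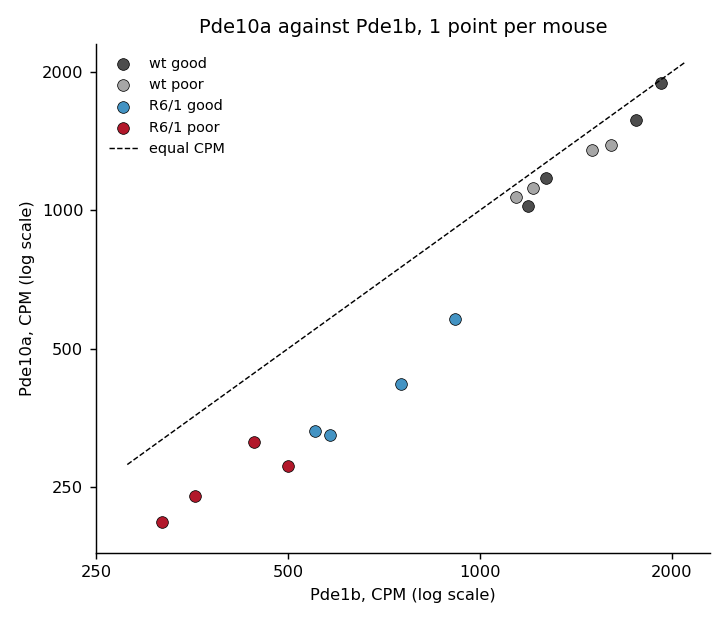
CPM of Pde10a (vertical, log scale) against CPM of Pde1b (horizontal, log scale), 1 point per mouse coloured by group; the dashed line marks equal CPM. Wild-type points lie just under the line (ratio 0.861 to 0.984), and all R6/1 points lie farther below it (0.554 to 0.708).

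Levels of different genes were compared per length, as CPM per kb of exon. The length merges the exons of all annotated transcripts, and which of them striatum uses was not measured. The order and the gaps therefore depend on the annotation. Pde1b has 5396 exonic bases and Pde10a 12849, and their CPM was nearly equal in wild-type mice. In wild-type mice the order was Pde1b (269 ± 54.2, SD, n = 8), Pde10a (103 ± 23.0), Pde8b (20.2 ± 1.63), Pde7b (17.3 ± 2.59), Pde4b (16.8 ± 0.69), Pde1a (12.03 ± 3.12), Pde4a (11.3 ± 1.68), Pde4d (2.33 ± 0.30), Pde1c (2.25 ± 0.26) and Pde2a (2.08 ± 0.49). The ranges of neighbouring genes overlapped within the run from Pde8b to Pde4b, between Pde1a and Pde4a, and within the run from Pde4d to Pde2a. Within each wild-type mouse, however, Pde8b was above Pde7b. The place of Pde2a is uncertain, and over only the exonic bases it does not share its level was 5.84. In R6/1 mice Pde1b (102 ± 37.1) and Pde10a (26.2 ± 9.11) were still first. The range of Pde10a overlapped that of the next gene, Pde1a (15.96 ± 5.004), but Pde10a was the higher within each R6/1 mouse. By its mean, Pde7b (9.55 ± 2.17) came after Pde4b (15.6 ± 1.32) and Pde4a (10.02 ± 1.03). Pde7b overlapped Pde4a. It was above Pde4a in R6/1 “good” 2, 3 and 4 (12.1, 9.76 and 13.2 against 8.84, 9.71 and 8.26) and below it in the other R6/1 mice.

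Summed per length over the 9 genes other than Pde2a, the level was 454 ± 75.2 CPM per kb in wild-type, 234 ± 39.7 in R6/1 “good” and 166 ± 24.3 in R6/1 “poor” mice (SD, n = 8, 4 and 4). Pde1b and Pde10a together made up 81.4% ± 3.22 of that sum in wild-type, 68.7% ± 5.90 in R6/1 “good” and 57.1% ± 2.85 in R6/1 “poor” mice. The shares of the 3 groups did not overlap from mouse to mouse (78.0% to 86.8%, 61.1% to 75.3%, and 54.7% to 60.6%). Between the R6/1 groups the gap was narrow (61.1% against 60.6%), and library numbering was not balanced. The shares were not tested. These are shares of RNA and not of enzyme activity, and they depend on the same annotated exon lengths.

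**Figure D5:**
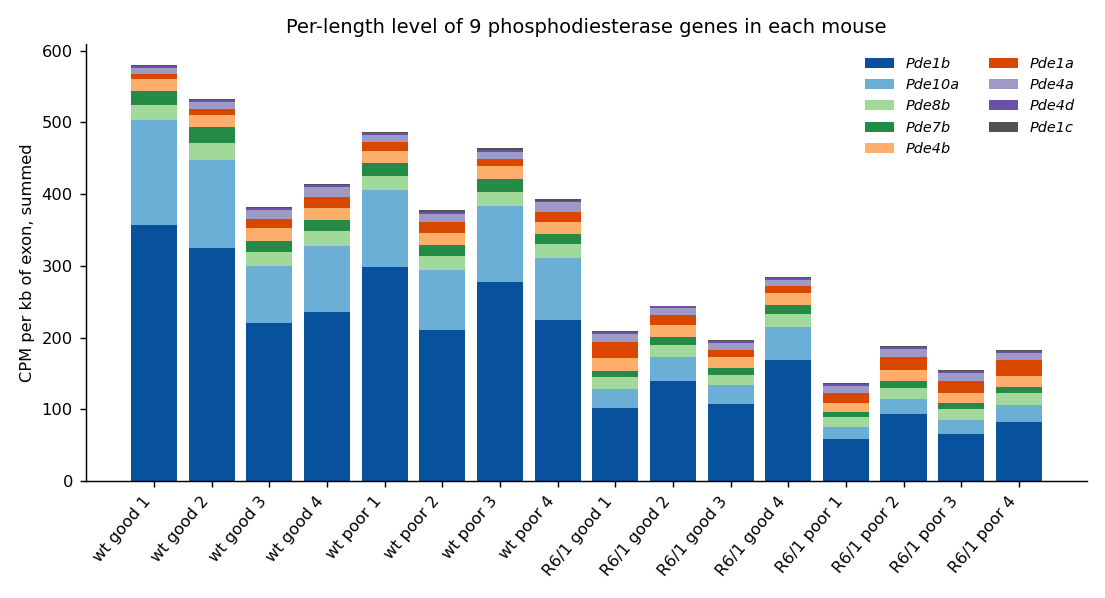
Stacked bars of CPM per kb of exon for 9 phosphodiesterase genes (Pde2a is left out because most of its exonic bases are shared with Gm45837), 1 bar per mouse, starting at 0. The dark and light blue segments, Pde1b and Pde10a, make up 78.0% to 86.8% of each wild-type bar and 54.7% to 75.3% of each R6/1 bar.

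Of the other phosphodiesterase genes, 10 of 14 were tested over both genotypes (8 R6/1 against 8 wild-type mice), and 3 fell, none rose and 7 did not pass, where 17.0% of all genes were called lower and 17.2% higher. These shares are the background of each list that follows. The median log2 fold change was -0.11. Pde8a, the paralog of Pde8b, fell by 0.51 on the log2 scale (SE 0.11, adjusted p = 0.00148), from 40.2 ± 6.26 CPM in wild-type to 28.3 ± 4.94 CPM in R6/1 mice (SD, n = 8 each). Pde9a, which hydrolyses cyclic GMP, had -0.30 (SE 0.07, adjusted p = 0.00283) and Pde3a -0.33 (SE 0.12, adjusted p = 0.0403). Pde3b did not pass (0.11, SE 0.06, adjusted p = 0.186).

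The enzymes that make the substrates are the adenylyl and guanylyl cyclases. Of 17 tested (18 listed), 6 fell, 1 rose and 10 did not pass, against 17.0% and 17.2% of all genes, with a median of -0.11. Adcy5, the main striatal adenylyl cyclase, fell by 1.53 on the log2 scale (SE 0.14, adjusted p = 6.04e-07), from 1359 ± 230.4 to 471 ± 116 CPM. Gucy1a1, a subunit of the nitric oxide receptor, had -0.40 (SE 0.09, adjusted p = 0.00321) and Gucy2e -0.77 (SE 0.13, adjusted p = 0.000254). Npr2, a natriuretic peptide receptor that makes cyclic GMP, rose by 0.55 (SE 0.06, adjusted p = 2.96e-06).

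Of 24 effectors, the genes whose products respond to cyclic nucleotides, 5 fell, 6 rose and 13 did not pass, with a median of 0.09. Both counts are near the 17.0% lower and 17.2% higher of all genes. Ppp1r1b, which encodes DARPP-32, fell by 1.69 (SE 0.19, adjusted p = 9.51e-06), the pacemaker channel gene Hcn2 had -0.37 (SE 0.07, adjusted p = 0.000814), and Popdc3 had -1.28 (SE 0.24, adjusted p = 0.000416) at about 1 CPM. Prkacb, a catalytic subunit of protein kinase A, rose by 0.27 (SE 0.06, adjusted p = 0.00177).

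Of 19 anchoring proteins, calmodulins and kinase inhibitors, 7 fell, 3 rose and 9 did not pass, against the same 17.0% and 17.2%, with a median of -0.06. Pcp4, a calmodulin-binding protein, fell by 1.42 (SE 0.18, adjusted p = 2.955e-05). The anchoring protein gene Akap5 fell by 0.68 (SE 0.10, adjusted p = 6.17e-05). Of the protein kinase A inhibitors, Pkig fell by 0.54 (SE 0.08, adjusted p = 3.36e-05) and Pkia rose by 0.37 (SE 0.06, adjusted p = 0.000182).

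Across the 16 libraries, the genes with an average of at least 1 on the log2 CPM scale whose deviations from their own wild-type mean were most like those of Pde10a were Rgs9 (root mean square difference 0.11 log2 units), Itga5 (0.20), Ppp1r1b (0.21), Hipk4 (0.21) and Kcnh4 (0.21). For Pde1b they were Drd1 (0.13), Adcy5 (0.15), Actn2 (0.15), Myo3b (0.15) and Ido1 (0.16). Their log2 fold changes in all R6/1 mice lay between -2.22 (Hipk4) and -1.69 (Ppp1r1b) for the first 5, and between -1.53 (Adcy5) and -1.30 (Actn2) for the others. These genes were chosen by their likeness over the same libraries, so fold changes near those of Pde10a and Pde1b follow from the choice.

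The tissue was checked against cell type markers, and the part of each in the phosphodiesterase values was not tested. Of 18 markers of medium spiny neurons, all were lower in R6/1 mice (17.0% of all genes were), with a median log2 fold change of -1.46, and their summed CPM was 8306 to 12724 in wild-type, 3816 to 5773 in R6/1 “good” and 2586 to 3595 in R6/1 “poor” mice. In these tissue samples, fewer neurons of a type and less RNA per neuron cannot be told apart. Of other lists, 5 of 7 cholinergic markers were lower (sums of 110.03 to 227 in wild-type and 41.0 to 109 in R6/1 mice), as were 6 of 10 astrocyte (1 higher; 5428 to 6431 and 3508 to 4197), 5 of 10 oligodendrocyte (10531 to 16150 and 7441 to 11588), 10 of 10 microglial (671 to 848 and 486 to 643), 8 of 10 endothelial (413 to 495 and 302 to 371) and 3 of 10 pericyte markers (362 to 419 and 262 to 379). Cortical markers had 1 lower of 9 (49.7 to 792 and 58.5 to 847) and ependymal markers none (19.2 to 61.9 and 25.4 to 76.7).

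R6/1 “poor” 1 and 3 stood apart in markers of neighbouring regions. Their summed CPM of 9 lateral septal markers was 215 and 155, against 33.9 to 94.6 in the other 14 mice, and that of 14 hypothalamic markers 51.6 and 36.4, against 7.45 to 28.2, with Kiss1 at 0 in all mice. In R6/1 against wild-type mice, 3 of the 9 septal markers were higher, and 1 of 9 tested hypothalamic markers was lower. Without both mice, R6/1 “poor” mice still had 6 of the 10 genes lower than wild-type mice, against 5.99% of all genes in that fit. They were Pde10a at -2.16 (adjusted p = 0.000497), Pde1b at -1.62 (adjusted p = 0.00114), Pde7b at -0.98 (adjusted p = 0.00228), Pde2a, Pde1c and Pde8b, while Pde4b and Pde4d lost their calls (adjusted p = 0.215 and 0.216 in edgeR). Against R6/1 “good” mice, the log2 fold change without them was -0.56 for Pde1b, -0.47 for Pde10a and -0.33 for Pde7b, each with an adjusted p of 0.94 in edgeR.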

How the data were processed

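The deposited table holds whole-number read counts per gene, 1 column for each of 16 striatal libraries, which the authors made from 75-bp paired-end reads of stranded, polyadenylated RNA libraries aligned to GRCm38. The submitters' processing notes name CASAVA, Bowtie and TopHat 1.0.1, and the counting program is not given in the sources used here, nor are its strand setting and annotation. Without the strand setting, reads of overlapping antisense genes cannot be told apart.

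All 55450 gene IDs matched a symbol of GENCODE M21. Total counts ran from 16155356 to 24897354 per library. The 19363 genes that reached 10 counts in 4 or more libraries were fitted with edgeR 4.0.16 (R 4.3.3, TMM normalisation, robust quasi-likelihood test, Benjamini-Hochberg adjustment, threshold 0.05), each comparison with its own groups only, and the 8 wild-type mice served as controls of each R6/1 group. SEs came from the fitted model. DESeq2 1.42.0 was an alternative. The fits were tested on simulated data with a single dispersion for all genes and no effect of library numbering or dissection. With 4 against 4 mice, edgeR recovered 58.2% of 1.5-fold and 100% of 2-fold changes. With 4 against 8 mice it recovered 80.6% and 100%. Changes under 1.5-fold were not simulated. Ratios were compared by exact permutation (scipy 1.17.1), a test added after seeing the data. Exonic lengths merge all GENCODE M21 transcripts of a gene. The mice are separate animals, so the spread is between animals, and no 2 libraries of a group agreed within sampling noise (chi-square per gene 5.31 to 36.5).

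The genes, the lists of related genes and the cell type markers were chosen with earlier results of these data known. Besides the 10 genes, the text names the 4 genes of each related list with the smallest p between the genotypes, and the 5 genes most like Pde10a and Pde1b. A further gene of the cortical marker list is not reported here and was left out of its sums and counts.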

Additional observations from a re-analysis of the deposited data

Results flagged for a closer look

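In 1 of 40 checks (10 genes in 4 groups), a mouse lay apart from the rest of its group by Dixon's ratio on log2 CPM. Pde4b was 189 CPM in wt “poor” 3, against 174 to 176 CPM in the other 3 wt “poor” mice, a gap of 0.861 of the group's range, above the 95% critical value. Chance alone marks about 1 group in 20.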

How the results depend on the processing

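Alternatives were DESeq2, RLE factors, no filter or a filter of 50 counts, a block for the replicate number, a single fit of all groups, the library numbering (1 to 8 or 9 to 16) as a covariate or as a restriction, wild-type mice of the same performance only, each mouse left out in turn, and, chosen after seeing the data, R6/1 “poor” 1 and 3 left out. No called value changed sign. The number of genes called among the 10 moved by over 1.5 times in R6/1 “poor” against wild-type mice within libraries 1 to 8 (3, where the lone R6/1 “poor” mouse takes its spread from the wild-type mice) and in R6/1 “poor” against R6/1 “good” mice with DESeq2 (3). The median over the 10 genes in R6/1 “good” against wild-type mice was -0.47 to -0.34 with 1 mouse left out, the latter without R6/1 “good” 3. With the replicate block, 2 of the 10 genes (Pde1b and Pde10a) were called between R6/1 “poor” and “good” mice, and Pde1a was called in R6/1 “poor” against wild-type mice (adjusted p = 0.027 in edgeR). Same-numbered mice did not deviate together (correlations of -0.35 to 0.23, 5 of 24 over 0.1), so the numbers do not pair the mice. The block changed no other call among the 10 genes. Over all genes, 0 were called between R6/1 “poor” and “good” mice by edgeR, 356 by DESeq2, 96 with the block, 28 without a filter, 61 without R6/1 “poor” 2 and 99 without R6/1 “poor” 4. The 5511 calls in R6/1 “poor” against wild-type mice fell to 445 in libraries 1 to 8, 3401 in libraries 9 to 16, 3662 without R6/1 “poor” 3 and 1800 without R6/1 “poor” 1 and 3. The 6620 calls in all R6/1 mice fell to 4368 and 3401 in libraries 1 to 8 and 9 to 16, and the 4758 in R6/1 “good” mice to 2698 against wt “good” mice only. The cause was not tested. Of 1280 fold changes refitted under an alternative, 1200 kept their direction and their side of the threshold, 21 lost and 19 gained a call, and 40 that were not called changed sign.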
